A study of Mus musculus with 6 samples.

Results

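Complement is a set of plasma and cell-surface proteins that tag and lyse targets, and 9 of its genes are described here across cells sorted from mouse breast tumours. The genes are C2, C3, C4b, C7, C1ra, C1s1, Cfb, Cfi and Cfp. They are 9 of 52325 genes in the deposited table and 9 of the 20684 that passed the filter on low counts, and all 9 passed it. They were chosen with the Elf5-positive and Elf5-negative values of these same libraries in view. Their differences between the groups are therefore a description. Where the outcome for one of them in the test across all genes is named, it supports nothing.

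The samples were breast tumours of C57BL/6 mice that carried an Elf5-GFP reporter and C3-T, a tumour background whose name the labels do not expand. In the reporter, green fluorescent protein (GFP) stands for expression of Elf5, a transcription factor of luminal mammary cells that belongs to the ETS family. Tumours were digested with collagenase and hyaluronidase, sorted with antibodies to CD45, CD31 and TER119 (leukocyte, endothelial and erythroid surface proteins) and then split by GFP. All groups share strain, tumour background, reporter and sort, and the labels give no age, parity, promoter or pooling of animals. There were 2 Elf5-positive libraries and 4 Elf5-negative libraries. None of the antibodies marks fibroblasts, so the GFP-negative fraction may hold cells other than tumour cells. The titles carry 1 of 2 numbers and a code, T1 or T2, that the labels do not define. Elf5-positive library 1 and Elf5-negative libraries 1 and 2 carry the first title number, and the other 3 libraries carry the second. The T1 libraries are Elf5-negative 1 and 3.

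Complement can be started by antibody-bound C1, by sugar-binding lectins with the MASP proteases, or by slow spontaneous turnover of C3 in the alternative pathway. In the classical pathway C1r activates C1s, and C1s cleaves C4 and C2 to form a convertase that splits C3. Factor B takes the place of C2 in the alternative convertase, properdin holds that convertase together, and factor I inactivates C3b and C4b. C5 to C9 then build a pore in the target membrane. The liver makes most plasma complement, while fibroblasts, macrophages and epithelia are known local sources in tissues.

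Promoter sequence was given by RefSeq (GRCm38.p6) for 5 of the 9 genes, namely C3, C7, C1ra, C1s1 and Cfp. The 250 bases before the start are printed for 3 genes that had lower levels in every Elf5-positive library, C3, C1s1 and C7, and for Cfp, which did not. All 4 lie on the minus strand, and each sequence reads 5′ to 3′ toward the gene. The windows are chr17:57228137-57228386 for C3, chr6:124542360-124542609 for C1s1, chr15:5063774-5064023 for C7 and chrX:20931556-20931805 for Cfp. The bases after the C7 start are in no GENCODE transcript of C7, so its positions rest on RefSeq alone. A second C1s1 window, chr6:124542322-124542571, and the C1ra window, chr6:124512371-124512620, were searched but are not printed. The C1ra window runs into the gene, which GENCODE starts at 124512405. Capitals mark a match to a searched motif.
C3: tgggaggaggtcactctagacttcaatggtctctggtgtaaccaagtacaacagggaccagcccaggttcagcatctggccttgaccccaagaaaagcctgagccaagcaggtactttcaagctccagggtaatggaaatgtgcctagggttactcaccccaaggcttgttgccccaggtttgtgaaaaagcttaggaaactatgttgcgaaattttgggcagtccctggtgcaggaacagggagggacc
C1s1: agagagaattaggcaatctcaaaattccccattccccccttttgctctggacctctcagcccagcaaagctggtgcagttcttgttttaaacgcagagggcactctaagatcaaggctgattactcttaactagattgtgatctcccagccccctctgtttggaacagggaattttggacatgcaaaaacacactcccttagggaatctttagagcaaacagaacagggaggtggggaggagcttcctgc
C7: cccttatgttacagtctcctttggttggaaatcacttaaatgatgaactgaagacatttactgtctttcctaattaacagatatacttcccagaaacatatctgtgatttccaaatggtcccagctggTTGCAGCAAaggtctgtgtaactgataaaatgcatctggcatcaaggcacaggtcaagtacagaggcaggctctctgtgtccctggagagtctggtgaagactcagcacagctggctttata
Cfp: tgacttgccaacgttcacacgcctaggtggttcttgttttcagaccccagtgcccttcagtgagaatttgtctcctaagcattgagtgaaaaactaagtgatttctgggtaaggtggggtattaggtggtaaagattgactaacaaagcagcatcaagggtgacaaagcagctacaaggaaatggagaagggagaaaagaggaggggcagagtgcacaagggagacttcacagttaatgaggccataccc

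Both strands of all these windows were searched for 5 short motifs. They were GAAANNGAA (interferon response), TTCNNNGAA (STAT), GGGNNTTCC (NF-kappaB), TTGCNNCAA (planned for C/EBP) and CCGGAAGT (ETS, the family of Elf5). TTGCNNCAA is not the usual spelling of a C/EBP site, so a match to it is not read as one. The usual C/EBP spelling was not searched in any window. One match was found, TTGCAGCAA in the C7 window at bases -122 to -114 before the start. It matches TTGCNNCAA on either strand. Of 32851 promoter windows of the same length, 1.74% hold TTGCNNCAA, 7.13% the interferon letters, 7.02% the STAT letters, 4.98% the NF-kappaB letters and 2.88% the ETS letters. A match is a description of these letters only, and the windows without one say nothing of the factors.

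The shallowest library, Elf5-negative 4, had 9106660 counts, and the other 5 had 32602477 to 53694884. Elf5 itself was at 77.7 and 137 CPM (counts relative to library size, scaled by TMM, the trimmed mean of M-values) in the Elf5-positive libraries and at 6.93 to 24.7 CPM in the Elf5-negative ones. Whether separate animals gave the libraries is not stated in the labels, and every p-value below measures only how these libraries vary. Across all genes the edgeR quasi-likelihood test with Benjamini-Hochberg adjustment called 783 genes lower in the Elf5-positive libraries, 3.79% of those tested, and 121 higher, 0.585%.

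By that rule 6 of the 9 complement genes were called lower and 0 higher. In 8 of 9 both Elf5-positive values lay below all 4 Elf5-negative values, as they did for 14.8% of all genes tested. Since the genes were chosen on this contrast, nothing is read from either count. With Elf5-negative library 1 left out 3 were called, and with Elf5-positive library 2 left out 2. In bulk libraries fewer cells of a type and less RNA per cell cannot be told apart, and this holds for each level below.

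**Figure D1:**
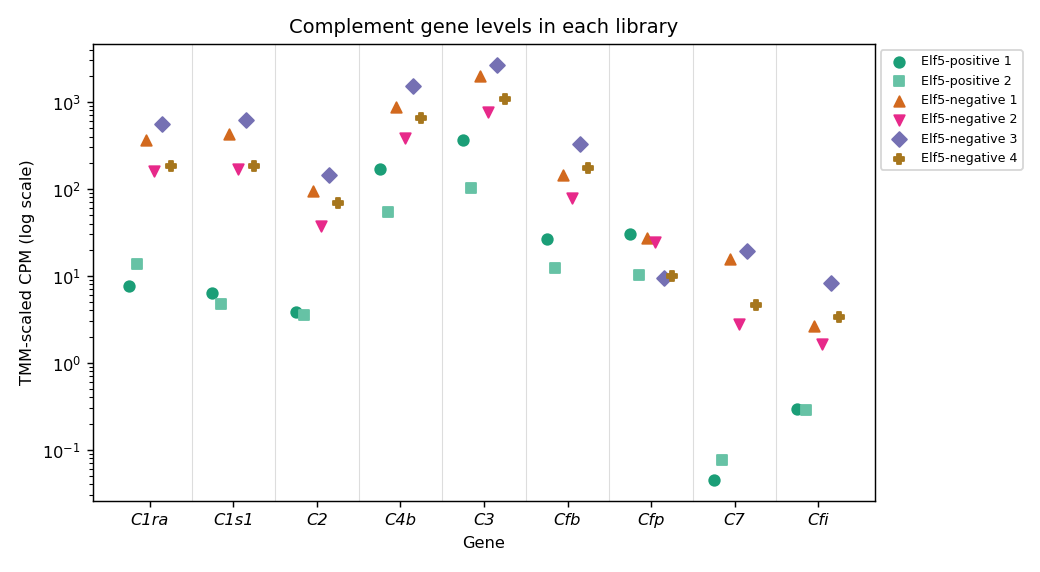
The plot shows the TMM-scaled CPM of the 9 complement genes (log scale) in each of the 6 libraries, 1 point a library. For 8 genes both Elf5-positive points lie below all 4 Elf5-negative points, and for Cfp they overlap.

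C1ra encodes the protease C1r, which activates C1s within the C1 complex. It lies at chr6:124512405-124523443 (GENCODE M21, GRCm38, plus strand). Its level was 7.72 and 13.5 CPM in Elf5-positive libraries 1 and 2, and 364, 159, 561 and 185 CPM in Elf5-negative libraries 1 to 4. The lowest Elf5-negative value was thus far above the higher Elf5-positive one. Means were 10.6 ± 4.11 (SD, n = 2) and 317 ± 186 CPM (SD, n = 4). The log2 fold change, Elf5-positive over Elf5-negative, was -4.90 (SE 0.69).

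C1s1 encodes the protease C1s, which cleaves C4 and C2. It lies at chr6:124530345-124542359 on the minus strand, beside C1ra. Its level was 6.37 and 4.74 CPM in the Elf5-positive libraries, and 431, 170, 615 and 183 CPM in the Elf5-negative libraries. Libraries 1 and 3 of the Elf5-negative group were the highest, as for C1ra, and the groups did not overlap. The log2 fold change was -5.98 (SE 0.75), with means of 5.55 ± 1.15 (SD, n = 2) and 350 ± 214 CPM (SD, n = 4). The ratio of C1ra to C1s1 stayed between 0.846 and 1.01 in the 4 Elf5-negative libraries and was 1.21 and 2.85 in the Elf5-positive ones.

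Both proteases have a near copy on the same chromosome, which matters because the deposited counts are model estimates that divide reads between similar genes. Of the 31-base words in C1ra transcripts, 56.9% also occur in C1rb, and 33.5% of those of C1s1 occur in C1s2. The longest stretch shared by the coding sequences is 757 bases for C1ra and C1rb and 229 bases for C1s1 and C1s2. The 60 coding bases around the end of that stretch are shown, bases 939 to 998 of C1ra and C1rb and bases 1131 to 1190 of C1s1 and C1s2, from GENCODE M21 transcripts. Capitals mark the positions at which the copies differ, 1 in the first pair and 3 in the second.
C1ra: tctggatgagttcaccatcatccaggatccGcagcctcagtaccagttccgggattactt
C1rb: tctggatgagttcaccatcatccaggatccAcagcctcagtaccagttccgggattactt
C1s1: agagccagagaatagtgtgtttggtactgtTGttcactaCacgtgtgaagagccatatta
C1s2: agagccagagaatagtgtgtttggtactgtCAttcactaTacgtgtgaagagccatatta

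Ratios between genes, here and below, are ratios of CPM with no division by length. C1rb over C1ra was 0.0812 to 0.175 in the 6 libraries, and C1s2 over C1s1 was 0.0742 to 0.184, so the counts put far fewer reads on the copies. The levels of these 4 genes are uncertain to the extent that shared reads were divided wrongly.

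C2 encodes the protease that C1s cleaves to form the catalytic part of the classical C3 convertase. It lies at chr17:34862604-34898265 on the minus strand, next to Cfb in the class III region of the major histocompatibility complex. C2 was at 3.85 and 3.52 CPM in the Elf5-positive libraries, and at 95.0, 37.1, 144 and 69.2 CPM in the Elf5-negative libraries. The 2 Elf5-positive values were close together and the groups did not overlap. The log2 fold change was -4.55 (SE 0.60), from means of 3.68 ± 0.229 (SD, n = 2) and 86.4 ± 45.2 CPM (SD, n = 4).

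C4b encodes C4, whose larger fragment binds covalently to targets and anchors the convertase. It lies at chr17:34728380-34743882 on the minus strand. Its level was 167 and 54.4 CPM in the Elf5-positive libraries and 877, 387, 1525 and 655 CPM in the Elf5-negative libraries. Elf5-positive library 1 was 3.08 times library 2, yet below the lowest Elf5-negative library. The log2 fold change was -2.96 (SE 0.70), one of the smaller differences among the 9 genes, and edgeR did not call it. The change was -3.99 without Elf5-positive library 1 and -2.37 without Elf5-positive library 2. Among fits without 1 Elf5-negative library, only that without library 2 called it (-3.20), and it was -2.53 without library 3. As C4b was chosen on this contrast, these refits support nothing.

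C4b shares 48.3% of its 31-base words with C4a, annotated in GENCODE M21 as a processed transcript. The ratio of C4a to C4b was 0.0157 to 0.0367 in the Elf5-negative libraries and 0.0523 and 0.0833 in the Elf5-positive ones. For C2 and Cfb, 40.2% and 75.5% of words occur in Gm20547, an annotated gene that overlaps both. Gm20547 was listed at 0 in all 6 libraries, so the counts of the overlap stand under C2 and Cfb.

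C3 is the protein on which all 3 starting routes meet. It lies at chr17:57203970-57228136 on the minus strand, far from the other members on that chromosome. C3 was at 364 and 102 CPM in the Elf5-positive libraries and at 2002, 766, 2675 and 1075 CPM in the Elf5-negative libraries. Per kilobase of exon it was the highest of the 9 genes in every library, the Elf5-positive ones included. The groups did not overlap, the log2 fold change was -2.81 (SE 0.73), and edgeR did not call it. The change was -4.00 without Elf5-positive library 1 and -2.17 without Elf5-positive library 2. No fit without 1 Elf5-negative library called it. The Elf5-positive mean was 233 ± 185 CPM (SD, n = 2), with library 1 at 3.56 times library 2, against 1630 ± 873 CPM (SD, n = 4).

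Cfb encodes factor B, the protease of the alternative C3 convertase. It lies at chr17:34856374-34862518 on the minus strand. Cfb was at 26.6 and 12.2 CPM in the Elf5-positive libraries and at 143, 77.8, 332 and 176 CPM in the Elf5-negative libraries. The groups did not overlap, and Elf5-negative library 3 was the highest. Means were 19.4 ± 10.2 (SD, n = 2) and 182 ± 108 CPM (SD, n = 4), and the difference was -3.23 on the log2 scale (SE 0.66).

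Cfp encodes properdin, which stabilises the alternative convertase and is known as a product of myeloid cells. It lies at chrX:20925454-20931555 on the minus strand. Cfp was at 30.7 and 10.3 CPM in the Elf5-positive libraries and at 26.9, 24.2, 9.54 and 9.87 CPM in the Elf5-negative libraries. Each Elf5-positive value had Elf5-negative values close to it, so the groups overlapped. The log2 fold change was 0.21 (SE 0.58), and it was -0.78 without Elf5-positive library 1. Scaled to the epithelial genes instead of TMM, it was -1.44, and that scaling moved the 31 complement and related genes named here by a median of -1.52.

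C7 encodes a late component that joins the growing membrane pore. It lies at chr15:4988762-5063740 on the minus strand. C7 was at 0.0450 and 0.0774 CPM in the Elf5-positive libraries, which is 6 counts in all, and at 15.7, 2.81, 19.3 and 4.63 CPM in the Elf5-negative libraries. It had the widest separation of the 9 genes. The pooled CPM was 212 times as high in the Elf5-negative libraries, with an exact 95% interval of 97.1 to 578 that covers counting error only. The fitted log2 fold change was -7.36 (SE 1.18) and depends on how so few counts are handled.

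Cfi encodes factor I, the protease that inactivates C3b and C4b, and is the regulator among the 9 genes. It lies at chr3:129835884-129875332 on the plus strand. Cfi was at 0.292 and 0.290 CPM in the Elf5-positive libraries, 28 counts in all, and at 2.64, 1.64, 8.32 and 3.39 CPM in the Elf5-negative libraries. All values were low and the groups did not overlap. Its log2 fold change was -3.77 (SE 0.82). The Cfi call and that of Cfb were each lost in 5 of the 6 fits that leave out 1 library, that of C7 in 3 and that of C2 in 1.

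Both Elf5-positive libraries carry the code T2, and with the T1 libraries left out the differences of the 8 genes other than Cfp were smaller. The log2 fold change in the T2 libraries was -5.82 for C7, -4.99 for C1s1, -4.00 for C1ra, -3.84 for C2, -3.07 for Cfi, -2.71 for Cfb, -2.23 for C4b and -1.98 for C3. In that fit edgeR called 0 of the 9 genes and 0 of all genes tested. With the title number as a block it called 5 of 9, and over all genes 1368 lower and 549 higher. Nothing is read from either count of members.

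The 9 genes could be ranked against each other only after division by exon length. On that scale (CPM per kilobase of exon) the Elf5-negative means ran from C3 at 317 ± 170 (SD, n = 4) through C4b at 151 ± 85.3 (SD, n = 4) and C1s1 at 112 ± 68.3 (SD, n = 4) to C1ra at 106 ± 62.5 (SD, n = 4). Cfb followed at 64.5, C2 at 22.3, Cfp at 10.2, C7 at 3.97 and Cfi at 1.80. Each neighbouring pair in this order overlapped within 1 SD of its means, a spread between libraries. Within every Elf5-negative library C3 was above C4b, C4b above C1s1, Cfb above C2 and C7 above Cfi. Elf5-negative library 4 had C1ra above C1s1 and Cfb slightly above C1ra, and library 3 had C7 above Cfp. In the Elf5-positive libraries the order changed, with C3 at 45.3, C4b at 19.5, Cfp at 11.8, Cfb at 6.87, C1ra at 3.56, C1s1 at 1.78, C2 at 0.952, Cfi at 0.131 and C7 at 0.0229 CPM per kilobase. By group means Cfp thus stood above Cfb, C1ra, C1s1 and C2 in the Elf5-positive libraries and below all of them in the Elf5-negative ones, although in Elf5-negative library 2 it was above C2 (13.9 against 9.59).

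**Figure D2:**
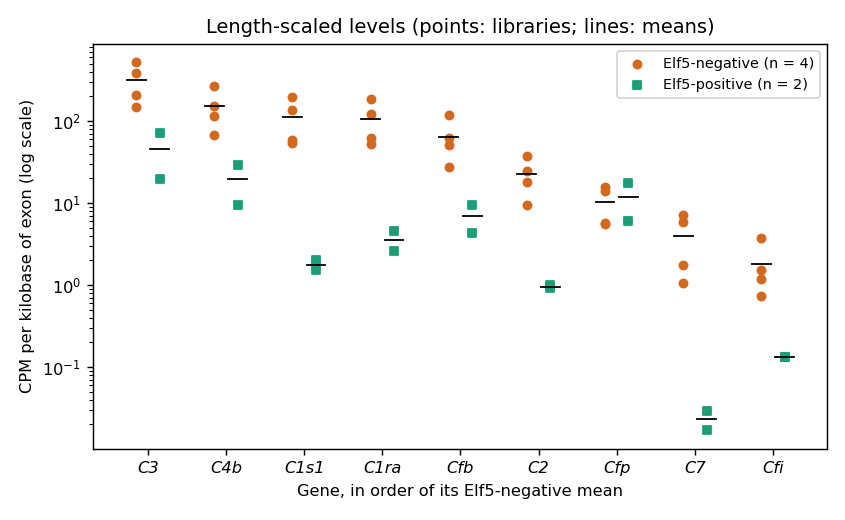
The plot gives CPM per kilobase of exon (log scale) for each gene, points for libraries and lines for group means, in order of the Elf5-negative mean. The Elf5-negative means run from 317 for C3 to 1.80 for Cfi, and Cfp is the gene whose groups overlap.

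Another 47 complement genes were listed by role, and 36 of them passed the low-count filter. They were left out of the 9 with the same results in view, so their counts are not independent of that choice. In the edgeR test 9 of the 36 fell in the Elf5-positive libraries and 0 rose, at an adjusted p below 0.05. Among those that fell, Colec11 was at 0.113 and 0.0581 CPM and Hc at 0.180 and 0.0387 CPM in the Elf5-positive libraries. These 2 genes passed the low-count filter through the Elf5-negative libraries and could only be called lower. Over all genes tested the shares were 3.79% and 0.585%. At an unadjusted p below 0.05 in edgeR, 12 of the 36 were lower and 0 higher, against 3498 of all 20684 genes tested in either direction. DESeq2 called 9 of the 36 lower and 0 higher, against 1763 lower and 436 higher over all genes. The median log2 fold change of the 36 was -0.828, against 0.0487 over all genes tested. Of the 9, the test still called 2 without Elf5-negative library 1, 5 without library 2 and 4 without library 3, and 5 without Elf5-positive library 1 and 2 without library 2. It called 1 without Elf5-negative libraries 1 and 2 together.

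Among the other genes that start the cascade, 5 of 11 tested fell. They were C1s2 (log2 fold change -5.71, edgeR adjusted p = 0.0132), C1rb (-4.54, 0.0149), the C1r-like protease C1rl (-3.07, 0.0497), the lectin protease Masp1 (-4.05, 0.0467) and the collectin Colec11 (-3.69, 0.0401). The call of C1rl was lost in each of the 6 fits that leave out 1 library, that of Colec11 in 5, that of Masp1 in 4, that of C1rb in 2 and that of C1s2 in 0. C1q is the antibody-binding part of C1, and none of its 3 chains was called. C1qa averaged 29.6 ± 13.3 CPM (SD, n = 2) in the Elf5-positive and 36.6 ± 21.5 CPM (SD, n = 4) in the Elf5-negative libraries. The log2 fold changes of C1qa, C1qb and C1qc were -0.31, -0.22 and -0.15, none past the test, and each is above 0 without Elf5-negative library 1 or without Elf5-positive library 2. The mannose-binding lectin genes Mbl1 and Mbl2 had no count in any library.

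In the alternative pathway Cfd, encoding factor D, was below 1 CPM in all 6 libraries and did not pass the test. In the terminal pathway 1 of 4 other genes tested fell, Hc, which encodes C5 (log2 fold change -5.62, edgeR adjusted p = 0.0477), a call lost in 5 of the 6 fits that leave out 1 library. C6 and C8g had log2 fold changes of -0.93 and -0.12, and C9 of 1.56, and none passed. C8b had no count in any library.

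Of 5 other soluble regulators tested, 2 fell. Serping1, encoding the C1 inhibitor that blocks C1r and C1s, was at 52.1 and 20.5 CPM in the Elf5-positive libraries and at 531 to 1717 CPM in the Elf5-negative ones, and it fell (log2 fold change -4.88, edgeR adjusted p = 0.0157). Vtn, encoding vitronectin, fell by 5.56 on the log2 scale (edgeR adjusted p = 0.0104). Of the 6 fits that leave out 1 library, 2 lost the call of Serping1 and 0 that of Vtn. Clu, encoding clusterin, had a log2 fold change of 0.77 and did not pass. Its levels were 510 and 203 CPM in the Elf5-positive libraries and 160 to 248 CPM in the Elf5-negative ones, so the groups overlapped.

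Of 7 membrane regulators tested, 1 fell, Cd55, encoding the decay-accelerating factor (log2 fold change -3.60, edgeR adjusted p = 0.0279), a call lost in 4 of the 6 fits that leave out 1 library. Csmd1, Cr1l and Susd4 were not called, with log2 fold changes of -0.70, -0.75 and 1.06. Of 8 complement receptors tested, 0 were called by edgeR or by DESeq2, 0 had an unadjusted p below 0.05, and the median log2 fold change was -0.828. For Itgb2 and Itgam, which encode the chains of complement receptor CR3, the log2 fold changes were -0.84 and -0.85.

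**Figure D3:**
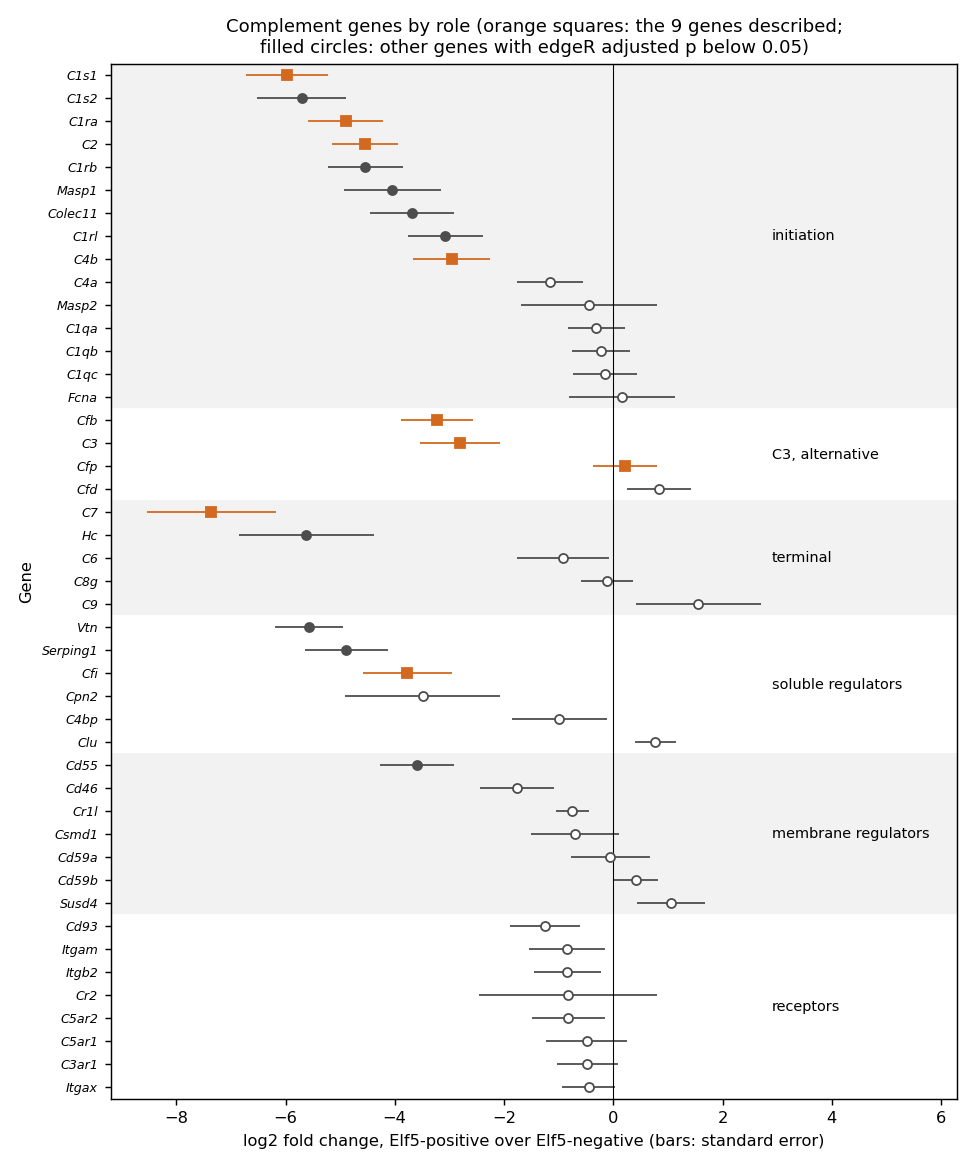
The plot shows the log2 fold change, Elf5-positive over Elf5-negative, with its standard error for each complement gene tested, grouped by role. Orange squares are the 9 genes described and filled circles are the 9 others with an edgeR adjusted p below 0.05, all of which lie left of 0.

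Signals known to raise complement genes were listed as well, 11 cytokines and transcription factors of which 10 were tested. Only Il6 fell in that list (log2 fold change -4.63, edgeR adjusted p = 0.0465), at 4.14 and 1.08 CPM in the Elf5-positive and 18.4 to 144 CPM in the Elf5-negative libraries, a call lost in 5 of the 6 fits that leave out 1 library. Stat3, Cebpb and Nfkb1 had log2 fold changes of 0.20, -0.07 and 0.05 and were not called. Ifng was below the low-count filter.

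Gene neighbours were counted to see whether the regions of the clustered members differed as a whole. Around C2, Cfb and C4b, 1 of 16 listed neighbours fell, Tnxb, which encodes a tenascin of connective tissue (log2 fold change -5.80, edgeR adjusted p = 0.0100), and the median of the 16 was 0.178. Around C1ra and C1s1, 3 of 17 fell, namely C1rl, C1rb and C1s2, and the median was -0.0194. The other listed neighbours in both regions were not called by edgeR. DESeq2 called 1 lower and 0 higher around C2, Cfb and C4b, and 4 lower and 1 higher around C1ra and C1s1.

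Markers of other cell types differed between the groups as well. Of 14 fibroblast markers, 12 fell and 0 rose in the Elf5-positive libraries, and their summed level was 1195 to 1616 CPM there against 20380 to 55020 CPM in the Elf5-negative libraries, with none of the 14 at 0 in any library. The fibroblast markers that edgeR did not call were Col6a3 and Pdgfra. Of 8 pericyte and smooth muscle markers Rgs5, Abcc9, Myh11 and Acta2 fell (135 to 186 against 570 to 1391 CPM), and of 10 endothelial markers Kdr, Tek and Eng fell (76.3 to 104 against 220 to 283 CPM). Of 18 epithelial markers 10 rose, with sums of 5935 to 8109 CPM against 2047 to 3521 CPM. Macrophage markers overlapped, with 0 of 11 called by edgeR, 1 lower by DESeq2 and at an unadjusted p below 0.05, and sums of 111 to 264 against 128 to 533 CPM. Hepatocyte markers summed to 0.271 to 0.765 against 3.18 to 9.67 CPM, Serpina1a fell of 3 tested, and Alb, encoding albumin, was at 0 in 4 of the 6 libraries and at most 0.163 CPM. Of 8 basal and myoepithelial markers Krt5 fell. These counts are edgeR's. DESeq2 called 13 fibroblast, 7 pericyte and smooth muscle, 4 endothelial, 3 hepatocyte and 4 basal and myoepithelial markers lower, and 16 epithelial markers higher. Markers of neutrophils, all leukocytes, T and NK cells, B and plasma cells, adipocytes, erythroid cells and skeletal muscle were not called by edgeR. At an unadjusted p below 0.05, 2 T and NK cell, 2 adipocyte and 3 skeletal muscle markers were lower, and DESeq2 called 2, 1 and 1 of them lower. Skeletal muscle markers summed to 202 CPM in Elf5-negative library 1 and to 2.69 to 36.2 CPM in the other 5. The part of these cell types in the complement differences was not tested.

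Complement levels were also set against those fibroblast markers, in ratios chosen after values had been seen and given with no test. Per CPM of Dcn, the fibroblast proteoglycan decorin, C1s1 was at 0.282 and 0.269 in the Elf5-positive libraries and at 0.240, 0.293, 0.263 and 0.263 in the Elf5-negative libraries. The 6 ratios overlapped even though Dcn itself was at 22.6 and 17.6 CPM in the Elf5-positive and 581 to 2338 CPM in the Elf5-negative libraries. C3 stood apart from C1s1 on this scale. C3 per Dcn was 16.1 and 5.80 in the Elf5-positive libraries and 1.12 to 1.54 in the Elf5-negative ones. C4b per Dcn was 7.42 and 3.09 against 0.489 to 0.942, and Cfb per Dcn 1.18 and 0.692 against 0.0798 to 0.253. C7 lay on the other side, at 0.00199 and 0.00440 against 0.00483 to 0.00878, with only 6 counts in the Elf5-positive libraries. A higher ratio per Dcn was not particular to complement genes, since any gene that fell less than Dcn rises on this scale. The fibroblast collagen Col1a1 was at 19.5 and 8.61 against 2.77 to 8.15, and Col3a1 at 11.5 and 12.7 against 4.95 to 10.1. The fibroblast markers Lum and Pdgfrb overlapped per Dcn. The source of these differences was not tested.

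The choice of fibroblast reference changed part of this. Per summed level of the 14 fibroblast markers, C3 was at 0.225 and 0.0855 in the Elf5-positive libraries and at 0.0364 to 0.0741 in the Elf5-negative ones, still with no overlap. C1s1 was at 0.00394 and 0.00397 against 0.00810 to 0.0160, so it no longer overlapped and was lower. C2 and C1ra overlapped on this scale and not per Dcn. C3, C4b, Cfb, Cfi and Cfp were higher in both Elf5-positive libraries on both scales, and C7 was lower on both. The ratios of C7 and Cfi rest on 6 and 28 counts in the Elf5-positive libraries. Whether their gaps exceed counting error was not tested.

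**Figure D4:**
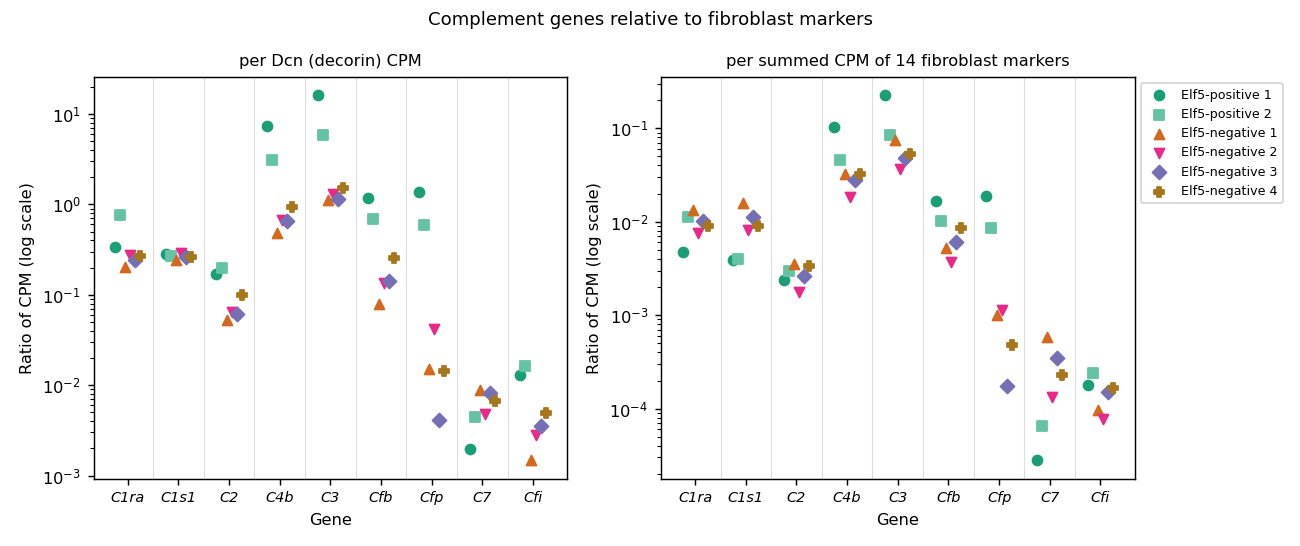
The plots show each gene's CPM divided by that of Dcn (left) and by the summed CPM of 14 fibroblast markers (right), log scale, 1 point a library. C1s1 lies at 0.240 to 0.293 per Dcn in all 6 libraries, and C3 is at 16.1 and 5.80 in the Elf5-positive libraries against 1.12 to 1.54.

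Some members kept steady ratios to each other, again picked after values had been seen. The ratio of C4b to C3 was 0.438 to 0.610 in all 6 libraries, with the Elf5-positive ratios of 0.460 and 0.532 inside the Elf5-negative range. C3 relative to C1s1 was not steady, at 57.2 and 21.6 in the Elf5-positive and 4.35 to 5.88 in the Elf5-negative libraries. Cfb over C2, genes that lie side by side, was 6.92 and 3.46 against 1.51 to 2.55. Over the 6 libraries the 8 members other than Cfp correlated with each other at r = 0.894 to 0.995 in log2 CPM, and Cfp with those 8 at r = -0.353 to 0.0271. Both ranges are descriptions over 6 libraries that differ in group and in the levels of cell type markers.

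Genes most like each member over the 6 libraries were sought among 12542 genes of at least moderate level, by Pearson's r of log2 CPM, as a description. C3 had C4b among its 3 most similar genes (r = 0.995), and C4b had C3. For C1ra the closest was C1s2, and for C1s1 they were Ccdc3, Fap and Scn7a. C2 was closest to Lgi2, Abi3bp and Flrt2, C7 to Hsd11b1, Mndal and Cul9, Cfb to Islr2, Scara3 and Fgd5, and Cfi to Fam174a, C1qtnf7 and Plac8. Cfp was closest to Naa80, Gps1 and Mrpl4, all at r of at least 0.987.

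A contrast that the choice of genes did not use is that between the title numbers, each on 1 Elf5-positive and 2 Elf5-negative libraries. The 3 libraries of the first number had Cfp at 30.7, 26.9 and 24.2 CPM and the 3 of the second at 10.3, 9.54 and 9.87 CPM, with no overlap. In edgeR with the Elf5 group as covariate its log2 fold change, second over first number, was -1.46 (SE 0.21), with an unadjusted p of 0.00022 and an adjusted p of 0.218, so it was not called. DESeq2 gave it an adjusted p of 2.08e-07 and edgeR with no filter on low counts 0.000475. Of the 9 members 1, Cfp, had an unadjusted p below 0.05 in edgeR, against 14.6% of all genes tested, so nothing is read from that count. Over all genes 1, 0.00483% of those tested, was called. The share of all genes with no overlap between the title numbers was not counted.

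Summed macrophage markers also differed between the title numbers. The 11 markers, 3 of which are the C1q chains, summed to 264, 533 and 257 CPM in the libraries of the first number and to 111, 147 and 128 CPM in those of the second. Cd68, encoding a lysosomal protein of macrophages, was at 24.4, 24.5 and 15.6 CPM against 6.00, 6.88 and 6.69 CPM. The list was not uniform. Cd163, a scavenger receptor of macrophages, went the other way with no overlap, at 2.54, 6.96 and 6.21 CPM against 10.9, 10.3 and 16.5 CPM, and Mertk had a log2 fold change of 0.28, second over first number. The ratio of Cfp to Cd68, chosen after values had been seen, was 1.10 to 1.72 in all 6 libraries. The part of macrophages in the Cfp levels was not tested.

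**Figure D5:**
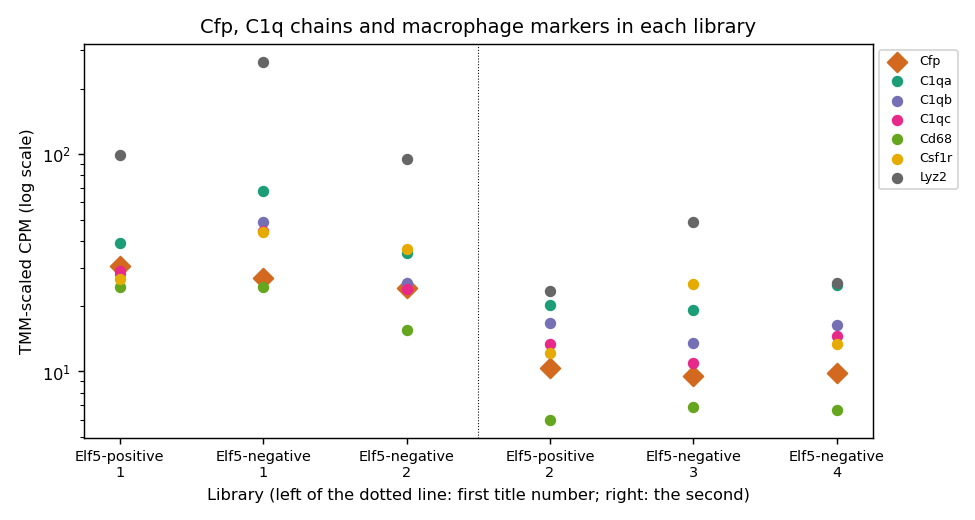
The plot shows TMM-scaled CPM (log scale) of Cfp, the C1q chains and 3 macrophage markers in each library, split by title number. The markers shown, Cd68, Csf1r and Lyz2, were picked from the list of 11. Cd163 and Mertk, which went the other way (log2 fold change 1.37 and 0.28, second over first number), are not plotted. Cfp lies at 24.2 to 30.7 CPM left of the line and at 9.54 to 10.3 CPM right of it, in Elf5-positive and Elf5-negative libraries alike.

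The code T1 or T2 gave another contrast, within the 4 Elf5-negative libraries. The choice of genes used these same 4 libraries, so the counts below are not independent of that choice. The members other than Cfp also varied together, so the counts are not of separate results. Both T1 values lay above both T2 values for 6 members, C2, C3, C4b, C7, C1ra and C1s1, as they did for 15.5% of all genes tested. C7 differed most, at 15.7 and 19.3 CPM in T1 and 2.81 and 4.63 CPM in T2, a log2 fold change of 2.25 with an unadjusted p of 0.00128 and an adjusted p of 0.700 in edgeR. For C1s1 it was 1.56, for C1ra 1.42, for C3 1.33, for C4b 1.19 and for C2 1.16. These 6 members had an unadjusted p below 0.05 in edgeR, against 4.72% of all genes, and 0 of the 9 passed after adjustment, as did 0% of all genes tested. DESeq2 called 4 members and edgeR with no filter on low counts 3. Both of these fits also called more genes than the main fit over all genes, as counted in the last section. Nothing is read from either count of members. Fibroblast markers summed to 27010 and 55020 CPM in the T1 libraries and to 21030 and 20380 CPM in the T2 libraries, and their part in the difference was not tested.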

How the data were processed

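RNA sequencing of 6 sorted cell populations was analysed. The deposited values are estimated counts (expected counts) per Ensembl gene, held as whole numbers. The authors made these estimated counts with Salmon against GRCm38.p5, per the submitters' processing notes. Neither the Salmon version nor the annotation is given in the sources used here. Such estimates divide reads between similar genes by a model.

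The 9 genes and the lists of other complement genes, neighbours, cytokines and markers were chosen with earlier results of these data known. Some listed genes are not reported here and were left out of the lists' counts. GENCODE M21 gave symbols for 52220 of 52325 IDs. The tools were R 4.3.3 with edgeR 4.0.16, limma 3.58.1 and DESeq2 1.42.0, and Python 3.11.15 with matplotlib 3.10.9. Genes of low count were dropped by edgeR's filterByExpr, given the groups, and TMM factors set the scale. The main test was edgeR's quasi-likelihood test, unblocked, with Benjamini-Hochberg adjustment over all genes and a threshold of 0.05. It was run on simulated data whose spread was taken from these libraries. The outcome of that run is not given here and supports no result. The Elf5 contrast used all 6 libraries, the title number contrast all 6 with the group as covariate, and the T1 and T2 contrast the 4 Elf5-negative libraries. An SE is the size of the log2 fold change over the square root of F. Totals of 9106660 to 53694884 counts limit the precision of low genes, and each interval covers only counting error.

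Named beyond the 9 genes are all listed complement genes that passed and up to 4 more of highest level per list, and, for comparison, others of the lists chosen after their values were seen. Likeness was taken over genes of average log2 CPM of at least 1, on log2 CPM with a prior count of 3. Promoters were searched over 250 bases. A planned comparison of protein sequences was not run. Alternatives were other scaling factors (epithelial genes among them), other filters, robust dispersions, limma-voom, DESeq2, a block on the title number, T2 libraries only, thinning and leaving out libraries.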

Additional observations from a re-analysis of the deposited data

Results flagged for a closer look

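Among 31 complement and related genes, 3 had 1 Elf5-negative library far from the other 3 by Dixon's criterion on the gap as a share of the group's range. Chance flags about 1 in 20 such groups. Masp1 was at 30.3 CPM in Elf5-negative library 3 against 8.05 to 11.8 CPM in the others (gap 0.834 of the range). Vtn was at 26.0 CPM in Elf5-negative library 1 against 10.2 to 12.5 CPM (gap 0.854). C9 was at 1.85 CPM in Elf5-negative library 4, the shallowest, against 0.0873 to 0.366 CPM (gap 0.842). None of the 9 genes described had such a library.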

How the results depend on the processing

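In every setting run, C2, C3, C4b, C7, C1ra, C1s1, Cfb and Cfi stayed lower in the Elf5-positive libraries. The count of these genes called was 6, and it was 2 to 7 on leaving out 1 library, 2 without Elf5-negative libraries 1 and 2 and 0 in the T2 libraries only. C3 and C4b passed with DESeq2, limma-voom, no filter on low counts, epithelial scaling and without Elf5-positive library 1, and C4b also with library totals only and without Elf5-negative library 2.

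Over all genes, 783 were lower and 121 higher. The counts were 1331 and 273 with no filter on low counts, 1763 and 436 with DESeq2, 0 and 0 in T2 libraries only, 12294 and 17 with epithelial scaling, and 75 and 0 without Elf5-negative libraries 1 and 2. On leaving out 1 library they were 197 to 811 lower and 25 to 133 higher. With the title number as a replicate block they were 1011 and 252, with 6 members called, and in T2 libraries with that block 1368 and 549, with 5 members called. Within T2, the Elf5-positive and Elf5-negative library of a number share both number and code, and the labels do not say whether they came from 1 tumour or animal, so whether they are pairs was not settled here.

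For the title number, 0 genes were lower and 1 higher, against 775 and 743 with no filter, 436 and 544 with DESeq2, and 0 to 21 and 0 to 40 on leaving out 1 library. Members called were 1 with no filter and 1 with DESeq2, Cfp each time, and 0 to 0 on leaving out 1 library. For T1 and T2, 0 and 0 genes were called, against 142 and 205 with no filter, 40 and 98 with DESeq2, and 0 to 67 and 0 to 47 on leaving out 1 library. Members called were 3 with no filter and 4 with DESeq2. The cause of these moves was not tested.

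Directions reversed as follows, in log2 fold change, with the range over fits that leave out 1 library. The ranges were -0.78 to 0.80 for Cfp, -0.86 to 0.17 for C1qa, -0.64 to 0.28 for C1qb, -0.81 to 0.36 for C1qc, -0.054 to 2.88 for C9, -0.042 to 1.29 for Clu and -2.09 to 0.031 for Csmd1. Scaled to epithelial genes, Cfp was -1.44, Cfd -0.66 and Clu -0.83. Without Elf5-negative libraries 1 and 2, C1qa was 0.45, C1qb 0.61, C1qc 0.76, Itgb2 0.071 and Itgam 0.26. In T2 libraries only, C1qb was 0.097 and C1qc 0.13, and with the block 0.091 and 0.089.

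Between title numbers, the ranges over fits that leave out 1 library were -0.012 to 0.85 for C2, -0.96 to 0.47 for C3, -0.62 to 0.82 for C4b, -0.62 to 1.86 for C7, -0.60 to 0.54 for C1s1 and -0.045 to 1.23 for Cfb. Between T1 and T2, Cfp ran from -0.83 to 0.87. The cause of these reversals was not tested. Depth limits C7 and Cfi most, which had 6 and 28 counts in the Elf5-positive libraries.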
